A study of Homo sapiens with 12 samples.

Results

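TNRC6A, TNRC6B and TNRC6C, the 3 human genes of the GW182 family, encode partners of the Argonaute protein AGO2, and their own transcripts were among the RNAs bound by AGO2. The AGO2-bound regions of these transcripts were taken as the eCLIP regions that overlap the span of 1 of these genes on its own strand, 18 of 2921 regions with AGO2 5xA and 9 of 1190 regions with wild-type AGO2. All 3 genes lie on the plus strand, and each held at least 1 region in both lists. The rule that picked the regions uses gene positions and no measured value, while the genes were chosen with earlier results of these data known.

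In eCLIP, cells are irradiated with ultraviolet light so that RNA and protein become linked, the protein of interest is pulled down, and the RNA pieces attached to it are sequenced and mapped. HCT116 cells, a line established from a human colorectal carcinoma, were used. The groups used here were FH-AGO2 5xA cells, in which a tagged AGO2 has a cluster of phosphorylated residues replaced by alanine, and FH-AGO2 WT cells, which carry the tagged wild-type protein, each with 2 immunoprecipitates (IP). Both were cultured for 48 h, crosslinked at 400 mJ/cm2 and precipitated with an anti-FLAG antibody, and no other agent is named in the labels. The labels do not say how the tagged proteins were expressed, whether untagged AGO2 remained, or whether a line is 1 clone. Inputs and AGO2 knockout libraries, 8 of the 12 samples, were not analysed here.

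Each genotype has 1 region list, merged by the authors from its IP replicates, so no value below has a replicate error and no difference between the lists was tested. Read depth was unknown. The region lists give no amount of each mRNA, and the input libraries, which sample it, were not analysed here. Whether a gene with more regions had more AGO2 per transcript or more transcript was therefore not tested. Of 14 colorectal epithelial markers, VIL1 and CLDN4 held a 5xA region and CLDN4 a WT region. Of 6 blood markers 0 held one, and of 6 fibroblast markers COL1A1 held regions in both lists. Of all 20056 annotated protein-coding genes, 1492 held a 5xA region and 672 a WT region. A region list shows AGO2-bound RNA and not expression, so these counts do not check the identity of the cells.

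GW182 proteins are the scaffolds of miRNA silencing. Their glycine-tryptophan repeats bind an Argonaute protein that carries a miRNA, and their C-terminal silencing domain binds the poly(A)-binding protein and the deadenylase complexes PAN2-PAN3 and CCR4-NOT, which shorten the poly(A) tail of the target mRNA. The TNRC6 transcripts described here are the mRNAs that encode these scaffolds, bound as RNA by AGO2, which is a separate matter from the binding between the proteins. Animal miRNAs mostly pair with sites in 3' UTRs, at the downstream end of the gene.

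TNRC6A held the most regions of the family, 9 with 5xA and 5 with WT, and they covered 1223 and 659 bases of it. TNRC6C held 6 with 5xA and 3 with WT, covering 622 and 388 bases. TNRC6B held 3 with 5xA and 1 with WT, covering 249 and 91 bases. The order of the genes was therefore the same in both lists. It did not follow gene length, since TNRC6B has the longest span (291 kb), TNRC6A the next (216 kb) and TNRC6C the shortest (151 kb). No region lay on the opposite strand of these genes, none lay in the 5 kb beyond their annotated ends, and none overlapped another annotated gene. The last 5 kb of TNRC6C include a part of TMC6, but no TNRC6C region overlapped it.

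**Figure D1:**
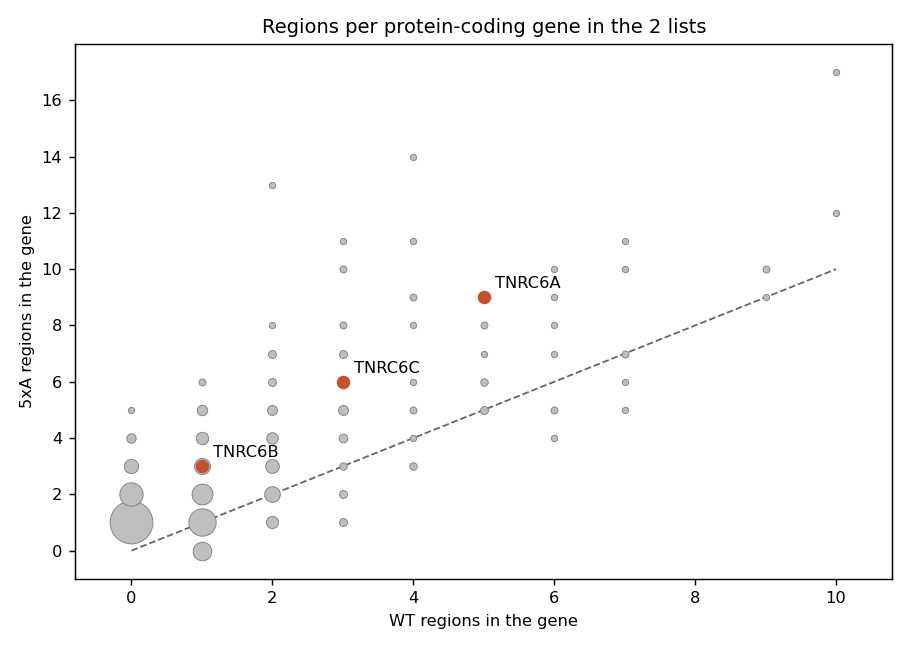
Regions per protein-coding gene, with the number in the 5xA list on the vertical axis and the number in the WT list on the horizontal axis. Grey circles grow with the number of genes at that pair of values, the dashed line marks equal numbers, and the TNRC6 genes, in red, lie above it at 9 and 5, 6 and 3, and 3 and 1 regions.

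Among protein-coding genes, TNRC6A was near the top of both lists. With 5xA, 18 of 1492 bound genes (1.21%) held at least 9 regions, TNRC6A included, and with WT, 29 of 672 bound genes (4.32%) held at least 5. For TNRC6C, 51 genes (3.42%) held at least 6 regions with 5xA and 80 (11.9%) held at least 3 with WT. TNRC6B was less set apart, with 261 genes (17.5%) holding at least 3 regions with 5xA, while a single region was the most frequent number in the WT list (463 of 672 genes). All 3 TNRC6 genes had more 5xA than WT regions, as did 299 of the 600 protein-coding genes bound in both lists (49.8%). The 5xA list was longer as a whole, by 2.45 times in regions and 2.35 times in covered bases. The TNRC6 genes together had 2.00 times as many regions and 1.84 times as many covered bases with 5xA. By gene the ratio of regions was 1.80 in TNRC6A, 3 in TNRC6B and 2 in TNRC6C, with the fewest regions behind the TNRC6B value. The whole lists include genes bound with 5xA and not with WT, whereas the TNRC6 genes are bound in both. Over the 600 genes bound in both lists the ratio was 1.58 in regions and 1.68 in covered bases, and the medians per gene were 2 regions with 5xA and 1 with WT, and 271 bases with 5xA and 148 with WT.

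In TNRC6A (gene ID 27327, chromosome 16, 24610205 to 24826218 on hg38), AGO2 regions gathered near the downstream end. With 5xA, 6 of the 9 regions lay between 24823462 and 24825770, a stretch of 2309 bases of which they covered 943 (40.8%). With WT, 4 of the 5 regions lay between 24823768 and 24825669, a stretch of 1902 bases of which they covered 588 (30.9%). The last region ended 448 bases before the annotated gene end with 5xA and 549 bases before it with WT.

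The widest TNRC6A region lay at the same place in both lists, 24823772 to 24824055 (284 bases) with 5xA and 24823768 to 24824053 (286 bases) with WT. Downstream of it, the 5xA list had regions at 24824193 to 24824418 (226 bases) and 24824425 to 24824511 (87 bases), with a gap of 6 bases between them. The WT list had regions of 115 bases (24824247 to 24824361) and 104 bases (24824428 to 24824531) there, with a gap of 66 bases. The 5xA regions thus form an almost unbroken block where the WT regions are set apart. Nearest to the gene end were 24825585 to 24825770 (186 bases) with 5xA and 24825587 to 24825669 (83 bases) with WT, which start 2 bases apart, while the 5xA region reaches 101 bases further downstream.

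The remaining WT region of TNRC6A lay outside this cluster, at 24815237 to 24815307 (71 bases), 10.9 kb upstream of the gene end. The 5xA list held its counterpart at 24815231 to 24815307 (77 bases), with the same downstream edge. A further 4 TNRC6A regions were found with 5xA and not with WT. Those at 24823462 to 24823558 (97 bases) and 24825297 to 24825359 (63 bases) fell in the end cluster, 209 and 227 bases from the nearest WT region. The other two, at 24791009 to 24791131 (123 bases) and 24805023 to 24805102 (80 bases), lay 35.1 and 21.1 kb upstream of the gene end, where the WT list had no region. The most upstream of them began 61.4 kb downstream of the transcription start that RefSeq's promoter table gives for TNRC6A. That start, at 24729651, lies inside the gene span, and from the first base of the span the same region was 180804 bases away.

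TNRC6C (gene ID 57690, chromosome 17, 77957557 to 78108835) showed a similar cluster further from its annotated end. With 5xA, 5 of 6 regions lay between 78104704 and 78106472, covering 534 of 1769 bases (30.2%). With WT, all 3 regions lay between 78105140 and 78106485, covering 388 of 1346 bases (28.8%). The 2363 bases that follow the last 5xA region, and the 2350 bases that follow the last WT region, held none.

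Each WT region of TNRC6C had a 5xA counterpart. The widest in both lists was at 78105134 to 78105347 (214 bases) with 5xA and 78105140 to 78105333 (194 bases) with WT. The next was at 78105799 to 78105902 (104 bases) with 5xA and 78105788 to 78105892 (105 bases) with WT, and the last at 78106387 to 78106472 (86 bases) with 5xA and 78106397 to 78106485 (89 bases) with WT. The widths of these pairs thus differed by at most 20 bases.

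Among the TNRC6C regions found with 5xA and not with WT, 78104704 to 78104769 (66 bases) and 78106131 to 78106194 (64 bases) fell in the cluster, 370 and 202 bases from a WT region. The third, at 78049668 to 78049755 (88 bases), lay 59.1 kb upstream of the gene end. This is the most upstream region of the family relative to the gene end. It began 8.76 kb downstream of the nearest of the 4 transcription starts that RefSeq's promoter table gives for TNRC6C.

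TNRC6B (gene ID 23112, chromosome 22, 40044834 to 40335808) differed from its paralogs in that no region lay within 5 kb of its annotated end. Its WT region was at 40323701 to 40323791 (91 bases), 12.0 kb upstream of the gene end, and the 5xA counterpart at 40323698 to 40323791 (94 bases) had the same downstream edge. The regions found with 5xA and not with WT were at 40323455 to 40323538 (84 bases), 162 bases upstream of the WT region, and at 40328317 to 40328387 (71 bases), 7.42 kb from the gene end. All of them still lay in the last 5% of the gene span. No exon annotation was used here, so whether a region falls in the 3' UTR, the coding sequence or an intron was not determined for any TNRC6 gene.

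**Figure D2:**
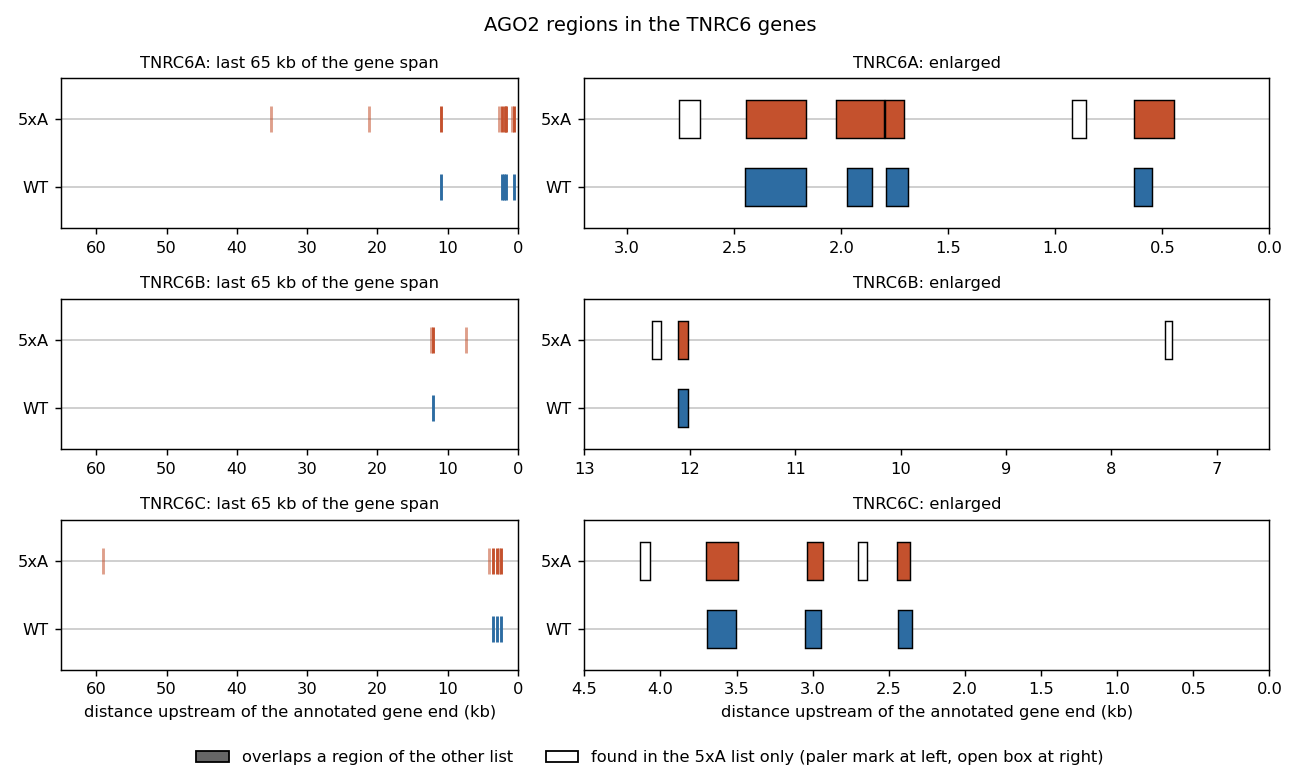
Position of each AGO2 region in TNRC6A, TNRC6B and TNRC6C, as the distance in kb upstream of the annotated gene end, with 5xA above WT. The left panels show the last 65 kb of each gene and the right panels enlarge the part with most regions to scale, where filled boxes overlap a region of the other list and open boxes were found with 5xA and not with WT.

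Every WT region of the family was shared. Counting an overlap of at least 1 base on the same strand, 9 of 9 WT regions overlapped a 5xA region (exact 95% Clopper-Pearson interval 66.4 to 100%), beside 81.3% of all WT regions. The interval holds the value of the whole list. Of the 5xA regions, 9 of 18 overlapped no WT region (50%, exact interval 26.0 to 74.0%), beside 67.7% of all 5xA regions, which also lies within the interval. The whole lists are not a like set, since the TNRC6 genes are bound in both. They include regions in 892 protein-coding genes bound with 5xA alone and in 72 bound with WT alone. The shares over genes bound in both lists were not computed, so the 50% cannot be read as low. Regions of 1 gene are not independent, and the intervals cover counting error alone. Among the 80 protein-coding genes with at least 3 WT regions, which include TNRC6A and TNRC6C, 52 (65%) had each of their WT regions overlapped by a 5xA region.

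The shared regions paired singly, with 1 WT region for each 5xA region, and most had nearly the same edges in both lists. Over the 9 pairs, the upstream edges differed by 2 to 54 bases with a median of 6, and the downstream edges by 0 to 101 bases with a median of 13. Over all 847 such pairs of the lists, the medians were 12 and 12 bases. Both edges lay within 20 bases of each other in 7 of the 9 TNRC6 pairs, beside 41.8% of all pairs, and within 10 bases in 3 of 9, beside 23.6%. These limits were chosen after the coordinates had been seen. The shared TNRC6 regions were also narrower than all shared regions, with medians of 104 against 145 bases with 5xA and 104 against 121 with WT. Edges of narrow regions that overlap cannot lie far apart, so width bears on these shares. The exceptions at 20 bases were both in the TNRC6A end cluster, where the 5xA region was the wider by 111 and 103 bases. The 5xA region was the wider in 5 of the 9 pairs and the WT region in 4, and 66.8% of all pairs had the wider region with 5xA.

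Regions found with 5xA and not with WT were narrow. Their widths in the TNRC6 genes were 63 to 123 bases with a median of 80, against 77 to 284 bases with a median of 104 for the shared 5xA regions. In the whole 5xA list the medians were 93 and 145 bases. An overlap of at least 1 base is easier to reach for a wide region, so the sharing rule itself bears on this difference, and the widths of the classes overlap. Over all TNRC6 regions the median width was 87.5 bases with 5xA and 104 with WT, against 104 and 114 bases in the whole lists. The TNRC6 regions at least 186 bases wide all lay in the end clusters of TNRC6A and TNRC6C. That limit was chosen after the widths had been seen. Of TNRC6 regions of any width, 11 of 18 with 5xA and 7 of 9 with WT lay in these clusters.

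**Figure D3:**
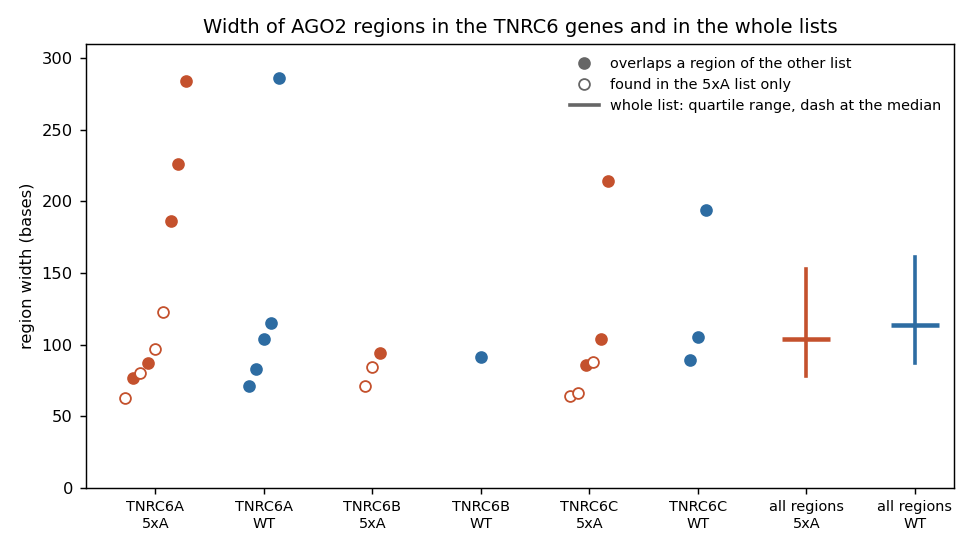
Width in bases of each region of TNRC6A, TNRC6B and TNRC6C in the 5xA list (red) and the WT list (blue), beside the median and quartile range of each whole list. Filled points are regions that overlap a region of the other list and open points were found with 5xA and not with WT, at 63 to 123 bases. The sideways spread of points within a gene has no meaning.

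The added 5xA regions lay either close to a WT region or far from one. In the TNRC6 genes 5 of the 9 were within 500 bases of a WT region of the same gene, 1 was 4525 bases away, and 3 were over 5 kb away, at 10134, 24105 and 55384 bases. Across all genes bound in both lists, 719 5xA regions overlapped no WT region, and 56.9% of these lay within 500 bases of a WT region of their gene and 10.6% over 5 kb from it. These genes include short ones, such as BTG2 (4084 bases), in which a distance over 5 kb cannot occur. The TNRC6 genes are each longer than 100 kb, and the shares for long genes alone were not computed. The median distance was 370 bases in the TNRC6 genes and 387 bases across all these genes. The 3 distant regions belong to TNRC6A and TNRC6C, in which the WT list had no region upstream of the last 11 kb.

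Within 5 kb of the downstream gene end lay 11 of 18 TNRC6 regions with 5xA (61.1%, exact interval 35.7 to 82.7%) and 7 of 9 with WT (77.8%, 40.0 to 97.2%). In all protein-coding genes longer than 10 kb the shares were 78.3% with 5xA and 80.1% with WT, and in those longer than 100 kb, as the TNRC6 genes are, 69% and 68.7%. All of these values lie within the intervals of the TNRC6 genes. Among the shared TNRC6 regions of the 5xA list 7 of 9 lay in this window, and among those found with 5xA and not with WT 4 of 9 did. The same split over all 5xA regions was not computed, and whether the classes differ was not tested.

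The TNRC6 genes were then set beside other genes whose products work with GW182 proteins or make miRNAs. Of 40 such genes, 5 held regions in both lists (12.5%), 4 with 5xA and not with WT (10%), 0 with WT and not with 5xA, and 31 held none. Over all 20056 annotated protein-coding genes, including genes that these cells do not express, the shares were 2.99%, 4.45% and 0.359%. The list was chosen with earlier results of these data known, and its shares were not tested. The strand table did not give a strand for 8 of the 40, among them AGO2, TNKS1BP1, PABPC1 and LSM14A, so regions of either strand were counted for these, and they may belong to an antisense transcript.

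DICER1, the nuclease that cuts miRNA precursors, came closest to TNRC6A. It held 8 regions with 5xA and 4 with WT, covering 1206 and 665 bases, and a 5xA region overlapped each of the 4 WT regions. Within the span of AGO2 there were 3 regions per list, covering 463 bases with 5xA and 441 with WT, of which 2 in each list were shared. AGO4, another Argonaute, held 1 shared region in each list, of 85 bases with 5xA and 70 with WT. AGO1 and AGO3 held none.

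Among genes of the machinery that GW182 proteins recruit, those with a region held 1 or 2 in each list where they were found, and 63.6% of all bound genes with 5xA and 68.9% with WT held a single region. CNOT4, which encodes a ubiquitin ligase associated with CCR4-NOT, held 1 region of 63 bases with 5xA and none with WT. TNKS1BP1, which encodes a protein that associates with CCR4-NOT, held 2 regions with 5xA and 1 with WT, covering 235 and 153 bases. PABPC1, the cytoplasmic poly(A)-binding protein gene, held 2 regions in the 5xA list and none in the WT list, and 1 of these also lay on MIR7705. DDX6, an RNA helicase of the decapping machinery that binds CCR4-NOT, held 1 region with 5xA and 2 with WT, and was the only gene of this list with fewer regions with 5xA. LSM14A and LSM14B, whose products bind DDX6, held 1 region each with 5xA and none with WT. The catalytic deadenylase genes CNOT6, CNOT6L, CNOT7, CNOT8 and PAN2, the scaffold gene CNOT1 and the PAN2 partner PAN3 held no region in either list. They are among the 31 of 40 listed genes with none. Most protein-coding genes also had none, since 1564 of 20056 held a region in either list.

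**Figure D4:**
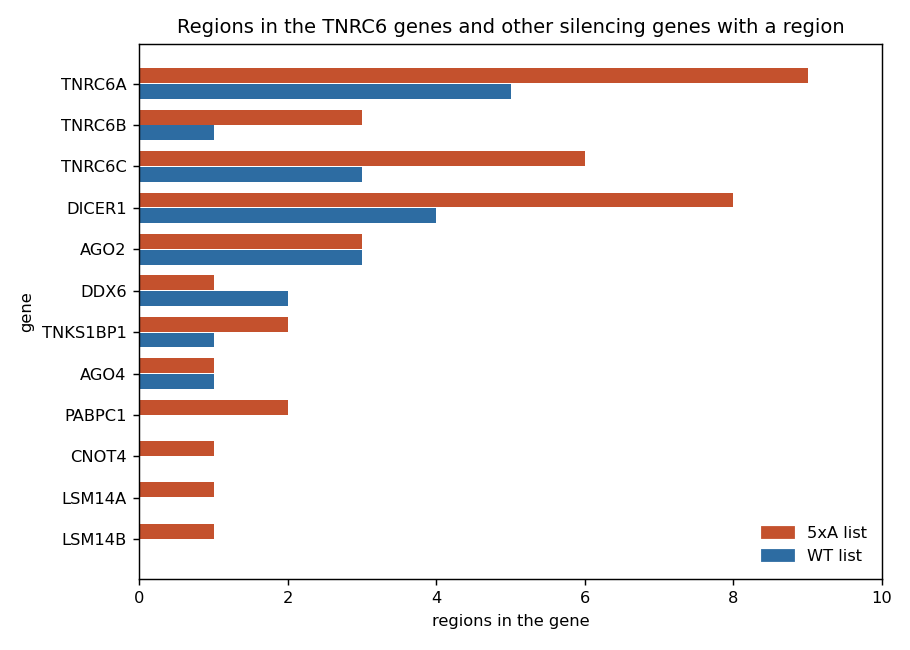
Number of regions per gene with 5xA (red, upper bar) and WT (blue, lower bar) in TNRC6A, TNRC6B and TNRC6C and in the 9 other silencing genes with a region. A missing bar stands for 0 regions, and the other 31 genes of the list, with none, are not drawn.

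The genes most like each TNRC6 gene were found by the summed difference in region number over the 2 lists. No other protein-coding gene held the 9 and 5 regions of TNRC6A. The closest were RREB1 and MDM2, with 8 regions with 5xA and 5 with WT, KMT2D and PKD1, with 9 and 4, and NACC2, with 9 and 6. For PKD1, 7 regions fell within another protein-coding gene too. The 3 and 1 regions of TNRC6B were matched by 45 other genes, of which DDI2, CREBBP, LOC102724428, TSC22D2 and MMP15 were closest in covered bases. The 6 and 3 regions of TNRC6C were matched by MAZ and RHOB, followed by FSCN1 and ZNFX1 with 6 and 2 and ZFHX3 with 5 and 3.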

How the data were processed

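Each deposited file lists regions by chromosome, start, end, name, score and strand. The authors' deposited score column is 0 in every row and was not used. The submitters' processing notes name hg38 as the build and list TopHat2 and cutadapt 1.9.1. How regions were called, at which threshold, with what use of inputs and knockout libraries, and how replicates were merged is not stated there or in the labels. Coordinates are printed counting from 1.

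Gene spans came from RefSeq (GRCh38.p14) and strands from RefSeq's promoter table, which gave one for 15842 of 20056 protein-coding genes. For the other 4214 genes regions of either strand were counted. A region was counted for every gene it overlapped by at least 1 base. Sharing was computed in Python 3.11.15 and checked against bedtools 2.31.1. On simulated data 300 of 300 planted shared regions were found. No test was run, because each genotype has 1 list. The members and lists were chosen with earlier results of these data known. The genes named were the TNRC6 genes, each listed silencing gene with a region, and the 5 genes closest to each TNRC6 gene in region number (ties by covered bases). Seed matches and protein sequences were not analysed here, since no genome or protein sequence was used.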

Additional observations from a re-analysis of the deposited data

How the results depend on the processing

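Of 25 alternatives, 22 left the count within 1.5 times its value, and 13 of these left it as it was. Some could not change it. No region lay on the opposite strand, so ignoring strand had no effect. Sharing within 50 bases had none either, since each added 5xA region lay at least 162 bases from a WT region. Joining regions within 50 bases, ignoring strand, taking midpoints and leaving out regions under 75 bases gave 14 to 18 TNRC6 regions with 5xA and 8 or 9 with WT. A reciprocal overlap of 50% left 8 shared WT regions and 10 regions found with 5xA and not with WT. A window of 2 kb before the gene end, in place of 5 kb, held 4 TNRC6 regions with 5xA and 3 with WT, fewer because the window is smaller. A window of 15 kb, chosen after seeing the data, held 15 and 9. With 10 in place of 20 bases as the limit for both edges, also chosen after seeing the data, 3 pairs were left, fewer because the limit is stricter. No paired analysis was possible because each list pools the replicates of its genotype, and for the same reason no replicate could be left out. The depth behind each list is unknown, so a region missing from the WT list may be one that was not detected. How reads that match more than one TNRC6 paralog were handled is not stated in the labels.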
